A study of Mus musculus with 12 samples.

Results

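Rab GTPases are small membrane-bound switches that direct vesicle traffic. Each family member marks particular membranes, is turned on by exchange factors (GEFs) and off by GTPase-activating proteins (GAPs), and in its active form recruits effectors that move, tether and fuse vesicles. In macrophages they govern the maturation of phagosomes, the recycling of receptors and the secretion of cytokines. The Rab genes were taken as the rows whose gene symbol is Rab followed by a number, with or without a letter and a last digit, which gave 46 of 12850 listed genes.

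RNA was sequenced from thioglycollate-elicited peritoneal exudate cells (PECs), macrophage-rich cells drawn into the abdominal cavity by an injected irritant, of WT C57BL/6 mice and of mice homozygous for the S513A knock-in of Zc3h12a (S513A), which replaces a serine of Regnase-1, an RNase that degrades inflammatory mRNAs. The knock-in was made by genome editing in C57BL/6J eggs and is present in every cell of the animal. Cells were collected 3.5 days after thioglycollate and were left unstimulated (0 h) or given 100 ng/ml of the bacterial endotoxin LPS for 4 or 8 h. Each of the 6 groups (WT and S513A at 0, 4 and 8 h) had 2 libraries, 12 in all. The labels do not say whether the libraries of a group came from separate mice, so p values measure the spread between these libraries, which may be technical.

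Between 9525979 and 12439960 reads per library were counted on listed genes, and 3 reads corresponded to a log2 CPM of -2.04 to -1.30. All 9 listed genes of a list of 10 LPS-induced genes rose at 4 h and at 8 h. All 8 macrophage markers were listed, with a summed level of 1.68e+04 to 2.78e+04 CPM over the 12 libraries. Of 10 neutrophil markers 3 were listed, and their sum was 660 to 745 CPM at 0 h, 445 to 689 at 4 h and 362 to 575 at 8 h. Most of it was Mmp8, at 9.29 to 9.50 log2 CPM at 0 h. S100a8 lay at 4.34 to 5.76 and Camp at -4.84 to -1.53 at 0 h. Mmp8 fell with LPS, while S100a8 and Camp were called higher at 8 h. The 2 listed of 7 eosinophil markers, Siglecf and Ccr3, summed to 15.3 to 18.5 CPM at 0 h and 3.62 to 4.58 at 8 h. The other lists (mast, B, T, dendritic, mesothelial and fibroblast cells) stayed at or below 48.9 CPM in sum, apart from resident macrophage markers (50.4 to 91.5 CPM at 0 h and 83.3 to 216 at 4 h), and no erythroid marker was listed. The part of these cells in the results below was not tested. In bulk RNA, fewer cells of a type and less RNA per cell cannot be told apart.

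Replicate 2 of WT at 4 h and replicate 1 of S513A at 8 h stood apart from the other libraries. The mean SD of their log2 differences from the other 3 libraries of their time point was 0.42 and 0.416 over 8353 genes, against 0.246 to 0.353 for the other 10 libraries. Some values are therefore also given without both.

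The 250 bases before the start are shown for the Rab genes with the 2 largest rises and the 2 largest falls at 4 h among those that RefSeq's promoter table (GRCm38.p6) holds. They were chosen by fold change. Of the 46 Rab genes, 39 matched the table, with 51 promoters. Rab32 lies at chr10:10558208-10558457 (minus strand), Rab12 at chr17:66519671-66519920 (minus strand), Rab19 at chr6:39381103-39381352 (plus strand) and Rab3a, with 2 starts, at chr8:70754453-70754702 and chr8:70754852-70755101 (plus strand). Capitals mark matches, on either strand, to 7 motif patterns described next.
Rab32: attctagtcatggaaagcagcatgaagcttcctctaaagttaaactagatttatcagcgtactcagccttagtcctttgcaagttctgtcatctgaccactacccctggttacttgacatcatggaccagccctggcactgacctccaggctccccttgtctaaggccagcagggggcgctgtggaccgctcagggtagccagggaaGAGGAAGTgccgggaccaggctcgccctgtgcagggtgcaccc
Rab12: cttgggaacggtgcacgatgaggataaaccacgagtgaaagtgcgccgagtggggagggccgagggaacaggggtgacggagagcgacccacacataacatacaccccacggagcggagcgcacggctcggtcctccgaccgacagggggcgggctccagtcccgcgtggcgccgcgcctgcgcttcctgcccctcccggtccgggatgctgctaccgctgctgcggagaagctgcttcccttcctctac
Rab19: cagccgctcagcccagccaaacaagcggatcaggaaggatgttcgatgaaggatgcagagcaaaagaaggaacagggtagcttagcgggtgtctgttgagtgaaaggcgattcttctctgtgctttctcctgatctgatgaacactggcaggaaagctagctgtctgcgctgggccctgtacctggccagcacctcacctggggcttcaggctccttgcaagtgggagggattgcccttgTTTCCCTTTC
Rab3a, first start: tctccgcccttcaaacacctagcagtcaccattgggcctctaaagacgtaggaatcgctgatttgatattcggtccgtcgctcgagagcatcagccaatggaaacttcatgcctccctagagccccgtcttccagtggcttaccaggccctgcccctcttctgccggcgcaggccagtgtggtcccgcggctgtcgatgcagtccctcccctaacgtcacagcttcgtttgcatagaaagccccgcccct
Rab3a, second start: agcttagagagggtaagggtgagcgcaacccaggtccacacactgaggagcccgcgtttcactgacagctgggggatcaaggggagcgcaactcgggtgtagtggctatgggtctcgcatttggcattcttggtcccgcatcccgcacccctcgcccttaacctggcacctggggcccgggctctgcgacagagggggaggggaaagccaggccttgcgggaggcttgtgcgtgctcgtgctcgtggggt

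In all, 11 patterns were searched, in windows of 250 and of 300 bases, and the capitals mark the 7 more specific ones. The patterns and windows were set after a first search had been seen. The single match in the Rab32 window was GAGGAAGT, the core bound by the macrophage factor PU.1, 43 to 36 bases before the start, and 2.44% of all 32851 promoters held it. Among Rab genes, Rab2b held it too. The Rab19 window held an interferon response pattern (GAAA, 2 free bases and GAAA) in its last 10 bases, as 2.98% of all promoters did. The E-box CACGTG was found in 5 of the 39 Rab genes (Rab20, Rab21, Rab23, Rab27a and Rab5a). These were 5 of the 51 Rab promoters, beside 6.02% of all promoters. The κB pattern (GGG, 2 free bases and TTTCC) matched Rab15, Rab28 and Rab9 (1.41% of promoters). The AP-1 pattern TGANTCA matched Rab15 and Rab34 (6.75%), the CRE TGACGTCA Rab5a (1.55%), and the C/EBP pattern TTGCNNAA Rab1b, Rab29 and Rab43 (9.56%). The 4 short or loose patterns were more frequent among all promoters. The loose κB pattern was GGG, 5 free bases and CC, which includes the stricter one. It was in 45.8% of all promoters and in 34 of the 51 Rab promoters (30 of the 39 genes). GGGCGG was in 32.7% and 35 (31 genes), and CCAAT in 33.8% and 21 (21 genes). GAGGAA, which lies within the PU.1 pattern, was in 23.3% and 8 (8 genes). Differences between Rab promoters and all promoters were not tested. In the window of 300 bases the 7 marked patterns matched the same Rab genes, and Rab24 in addition for the E-box. The GENCODE gene models of Rab32, Rab12 and Rab19 begin 58, 59 and 178 bases before the RefSeq starts, and that of Rab3a 24 bases before the first and 423 before the second, so parts of these windows are transcribed in those models. A match is a description of letters and not evidence of binding.

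Per kilobase of exon, Rab RNA at 0 h was led by Rab7, which drives fusion of late endosomes and phagosomes with lysosomes, at 181 ± 14.7 CPM per kb (SD, n = 4 libraries of both genotypes). Rab5c, an early endosome Rab, followed with 150 ± 12.1 CPM per kb, and Rab1a, which works between ER and Golgi, with 127 ± 7.58. The ranges of Rab7 (167 to 197) and Rab5c (137 to 165 CPM per kb) did not overlap. The 5 highest genes held 44% of the summed level per kb of all Rab genes at 0 h, 45.5% at 4 h and 44.5% at 8 h, but the genes changed. Rab32 stood 12th at 0 h with 41.3 ± 3.56 CPM per kb, first at 4 h with 212 ± 23.5 and second at 8 h with 147 ± 8.05. Rab7b went the other way, from rank 7 (61.8 ± 4.29 CPM per kb) to rank 25 (15.8 ± 1.44) at 4 h and rank 15 (37.9 ± 1.59) at 8 h. The summed level of the family was 1.45e+03 ± 79.3 CPM per kb at 0 h, 1.72e+03 ± 138 at 4 h and 1.61e+03 ± 80.1 at 8 h. These sums depend on the deposited scaling. The effective library size was 1.06 to 1.15 times the counted reads at 0 h, 0.88 to 0.97 at 4 h and 0.94 to 1.03 at 8 h. A larger factor lowers CPM, so the sums do not show that the family's share of counted reads changed.

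**Figure D1:**
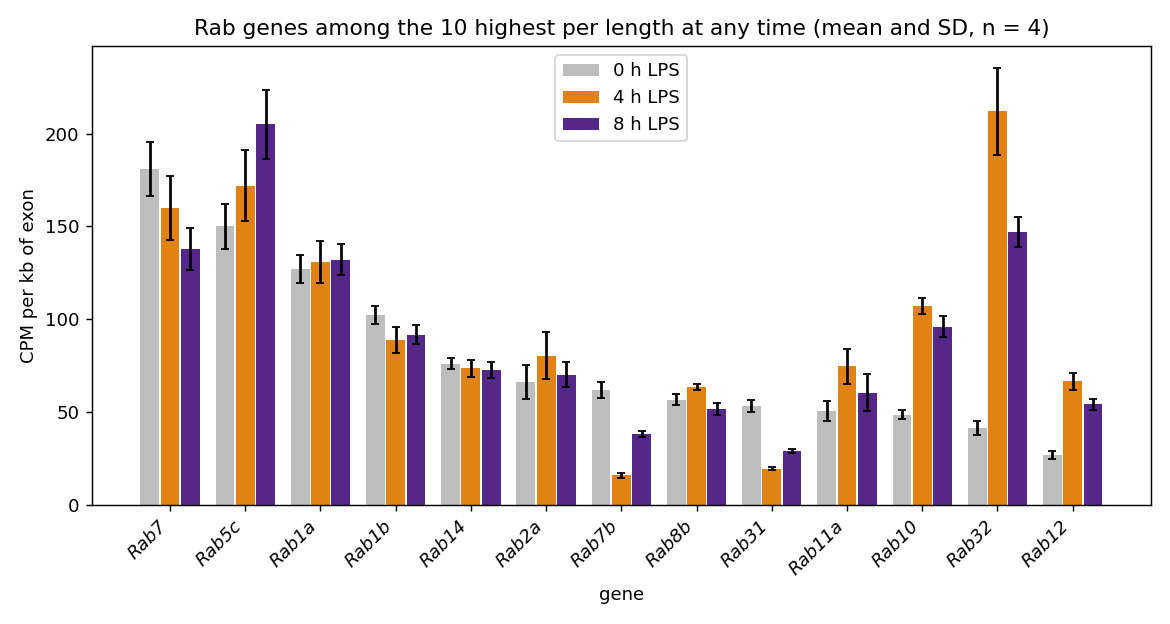
Level per exon length (CPM per kb, vertical axis) of the Rab genes that were among the 10 highest at 0, 4 or 8 h of LPS. Bars are means and error bars SDs of the 4 libraries at each time. Rab32 rose from 41.3 to 212 CPM per kb at 4 h, while Rab7b fell from 61.8 to 15.8.

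The first comparison asks which Rab genes differed in level after LPS, with both genotypes averaged. At 4 h, 16 of the 44 Rab genes tested rose (36.4%) and 12 fell (27.3%), where 29.1% and 26.7% of all 11885 genes did. At 8 h, 11 rose (25%) and 13 fell (29.5%), against 24.5% and 21.6% of all genes. The same shares of all genes stand beside the counts of each role group given below. Rab genes had a median log2 fold change of 0.17 at 4 h and -0.01 at 8 h, beside 0.02 and 0.00 for all genes. Both comparisons share the 0 h libraries. Rab genes called in the same direction at both times numbered 9 up and 11 down, 7 were up at 4 h only, 1 was down at 4 h only, 2 were up and 2 down at 8 h only, 12 were called at neither time, and none switched direction. Of all genes, 55.8% were called at 4 h and 46.1% at 8 h, but the tally over both times was not made for them. It therefore shows nothing particular to Rab genes. A call at 1 time only does not mean that the gene differed between the times. Of such genes, limma for 8 h against 4 h called Rab11a (adjusted p = 0.0496), Rab35 (0.0363) and Rab38 (0.00224) lower. It did not call Rab1b (0.673), Rab2a (0.228) or Rab28 (0.13). The values of the other such genes in that test are not given. Without the 2 libraries that stood apart, the median log2 fold change of all genes was 0.023 at 4 h and 0.019 at 8 h. Of the named genes whose call changed, Rab5c then had 0.27 at 4 h. Rab11a had 0.32, Rab8a 0.35 and Rab3a -1.01 at 8 h. Under quantile normalization 12 Rab genes were up and 17 down at 4 h, where 25.1% of all genes were up and 30% down, which turned the balance at 4 h. At 8 h it gave 6 up and 17 down, beside 20.8% and 25.9% of all genes, which widened the balance towards falls. The stricter filter (mean of 5 CPM) kept 35 Rab genes. With it 15 were up and 7 down at 4 h, beside 33.2% and 25.6% of all genes. At 8 h 11 were up and 8 down, beside 27.6% and 20.6%, which turned the balance at 8 h towards rises. The balance thus depends on the processing and on genes of low level.

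**Figure D2:**
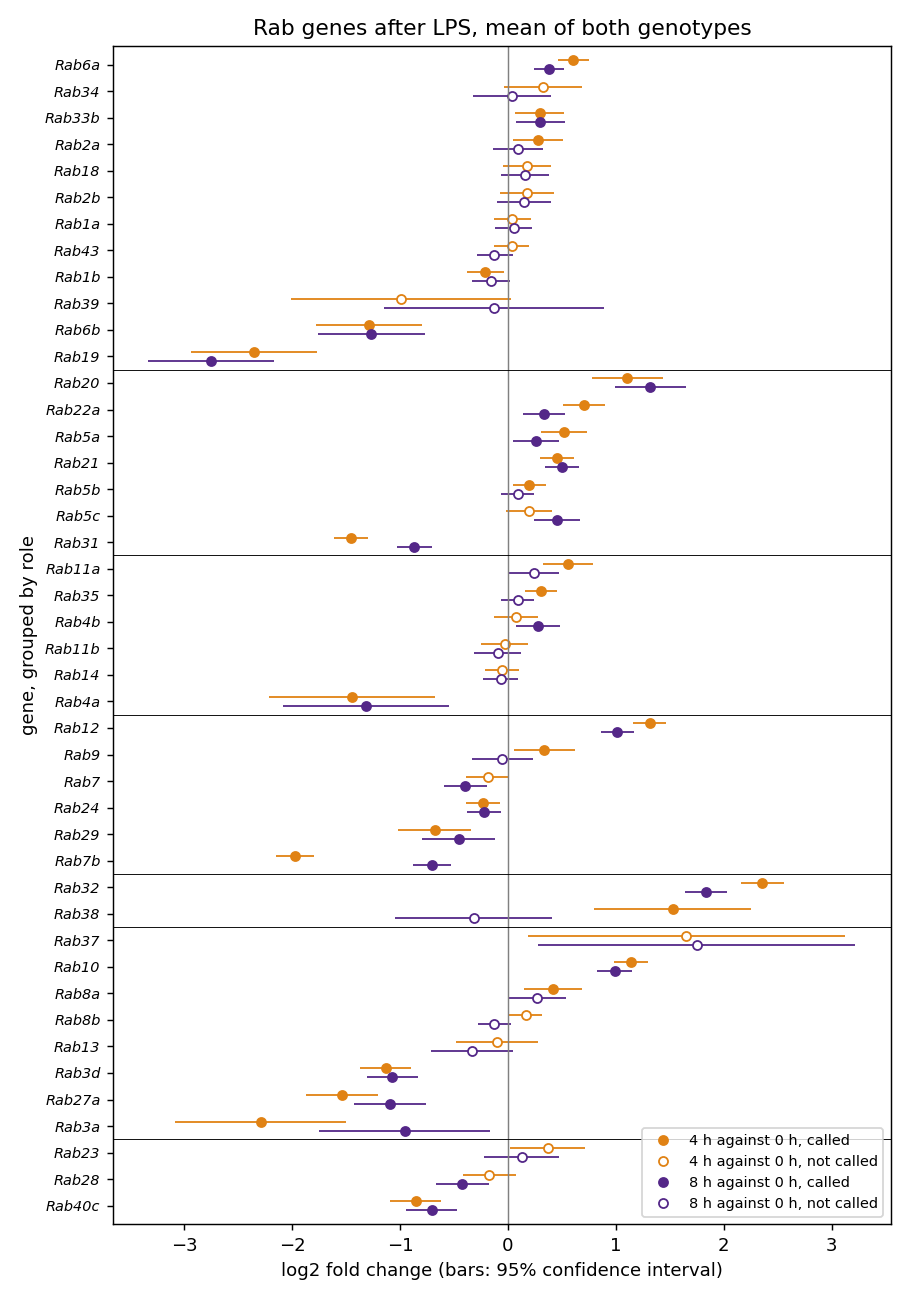
Log2 fold change (horizontal axis) of the 44 Rab genes tested at 4 h (orange) and 8 h (purple) of LPS against 0 h, mean of both genotypes, grouped by role. Bars are 95% confidence intervals and filled points passed an adjusted p of 0.05. Rab32 rose most at both times among the called genes, and Rab19 fell most.

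The pair of Rabs of lysosome-related organelles, Rab32 and Rab38, which deliver enzymes to melanosomes and similar organelles, both rose at 4 h. Rab32 lay at 6.40 and 6.36 log2 CPM in WT and 6.47 and 6.64 in S513A at 0 h. At 4 h it lay at 8.88 and 8.62 in WT and 8.80 and 9.01 in S513A, and at 8 h at 8.26, 8.38, 8.22 and 8.37 in the same order. All treated libraries lay above all 0 h libraries, and the 4 h libraries above those at 8 h. The log2 fold change was 2.36 ± 0.09 (SE) at 4 h, a 5.13-fold rise (limma, adjusted p = 3.81e-09), and 1.84 ± 0.09 at 8 h (adjusted p = 3.63e-08). Rab38 was far lower, with 4 to 30 reads per library. It lay at -0.76, -0.61, -0.42 and -0.18 log2 CPM at 0 h (WT, then S513A), at 1.42, 0.31, 1.01 and 1.39 at 4 h, and at -1.23, -1.22, -0.83 and 0.04 at 8 h. The 4 h libraries were above all others, while those at 0 and 8 h overlapped. The rise at 4 h was 1.53 ± 0.33 on the log2 scale (adjusted p = 0.00229) and the value at 8 h -0.32 ± 0.33 (adjusted p = 0.466). Rab38 passed the filter (at least 1 CPM in 2 libraries) only through its 4 h libraries, where it was high. Its tests against 4 h are therefore not independent of the filter.

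**Figure D3:**
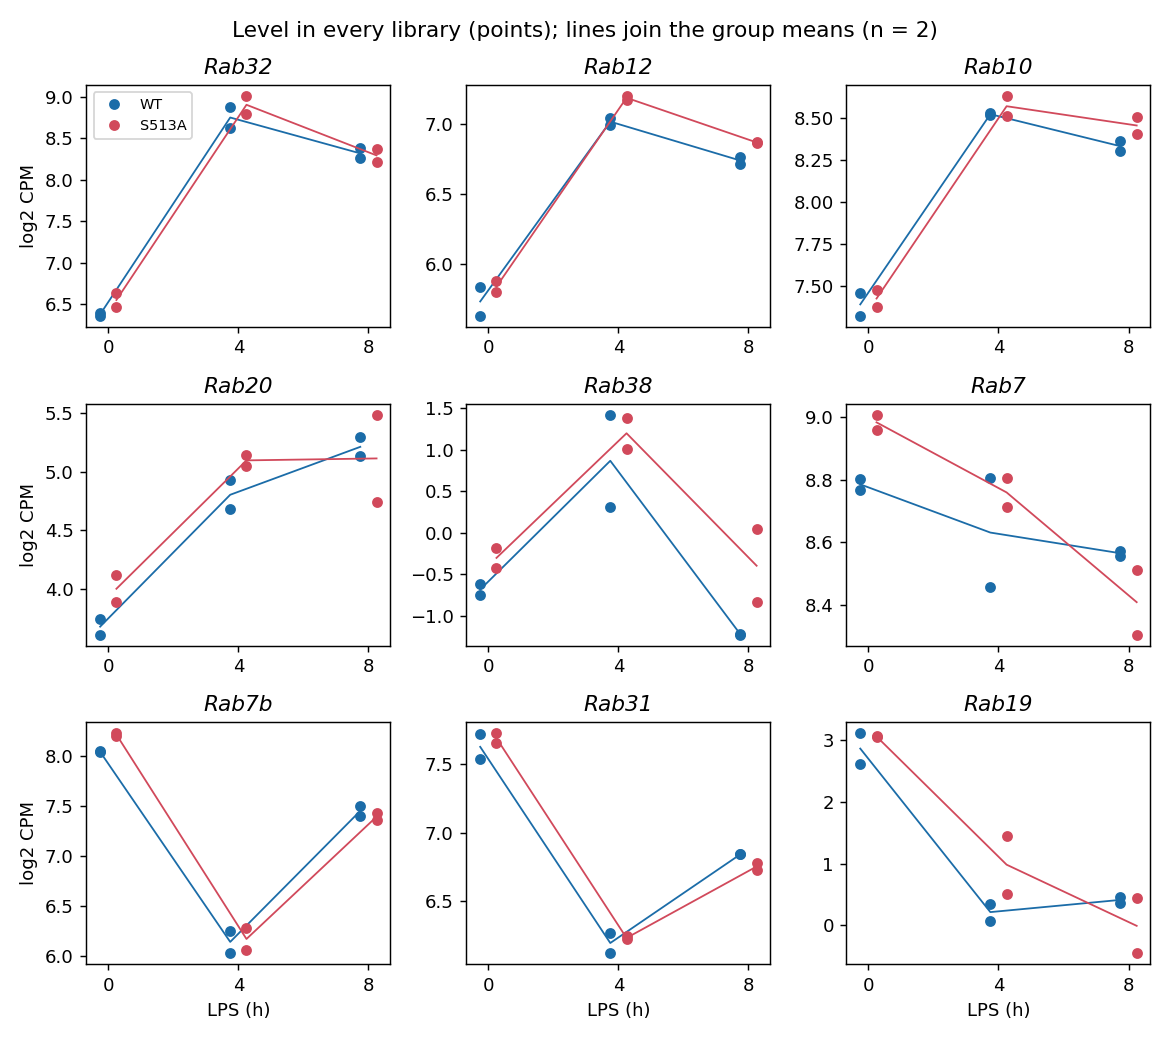
Log2 CPM (vertical axis) in every library against hours of LPS for 9 Rab genes, with WT in blue and S513A in red, points for libraries and lines through the group means (n = 2). Rab32, Rab12, Rab10 and Rab20 were higher at both times, Rab38 at 4 h, and Rab7b and Rab31 were lowest at 4 h.

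Among the 7 early endosome and phagosome Rabs, 5 rose (71.4%) and 1 (Rab31) fell (14.3%) at 4 h, where 29.1% and 26.7% of all genes did. At 8 h again 5 rose and 1 fell, against 24.5% and 21.6% of all genes. Rab20, which takes part in phagosome maturation, was at 3.61, 3.75, 4.12 and 3.89 log2 CPM at 0 h, at 4.93, 4.68, 5.05 and 5.14 at 4 h, and at 5.13, 5.29, 4.74 and 5.48 at 8 h (WT, then S513A). No treated library overlapped the 0 h range. It rose by 1.11 ± 0.15 on the log2 scale at 4 h (limma, adjusted p = 8.6e-05) and by 1.32 ± 0.15 at 8 h (adjusted p = 2.98e-05). An opposite-strand gene, E230013L22Rik, covers 25.6% of the Rab20 exons and had log2 fold changes of 1.16 and 1.32, so that unstranded reads of the pair cannot be told apart. Rab31, a relative of Rab22a in endosome traffic, lay at 7.54, 7.72, 7.66 and 7.73 log2 CPM at 0 h, at 6.26, 6.11, 6.24 and 6.22 at 4 h, and at 6.84, 6.84, 6.72 and 6.78 at 8 h. The 3 time points did not overlap. Rab31 fell by 1.45 ± 0.07 on the log2 scale at 4 h (adjusted p = 3.37e-08) and by 0.87 ± 0.07 at 8 h (adjusted p = 2.6e-06).

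Rab22a, which acts in endosome sorting, rose by 0.70 ± 0.09 at 4 h (adjusted p = 5.14e-05) and 0.33 ± 0.09 at 8 h (adjusted p = 0.01) on the log2 scale. Rab21, which traffics integrins, rose by 0.46 ± 0.07 and 0.50 ± 0.07. The 3 paralogs of Rab5, the regulator of early endosome fusion, had unlike values. Rab5a had log2 fold changes of 0.52 ± 0.10 at 4 h (adjusted p = 0.000838) and 0.26 ± 0.10 at 8 h (adjusted p = 0.0453), Rab5b of 0.20 ± 0.07 (adjusted p = 0.0276) and 0.09 ± 0.07 (adjusted p = 0.306), and Rab5c of 0.20 ± 0.10 (adjusted p = 0.101) and 0.45 ± 0.10 (adjusted p = 0.0027). The differences between the paralogs were not tested. Rab5b and Rab5c at 4 h changed sign under quantile normalization, and the call of Rab5a at 8 h was lost in 10 of the alternatives.

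Of the 6 late endosome and lysosome Rabs, 2 rose and 3 fell at 4 h, and 1 rose and 4 fell at 8 h. Rab12, which directs receptors to lysosomes, was at 5.84, 5.63, 5.80 and 5.88 log2 CPM at 0 h, at 7.04, 6.99, 7.20 and 7.17 at 4 h and at 6.72, 6.76, 6.87 and 6.87 at 8 h (WT, then S513A). It rose by 1.31 ± 0.07 at 4 h (limma, adjusted p = 6.21e-08) and 1.01 ± 0.07 at 8 h on the log2 scale (adjusted p = 6.02e-07). Rab7b, a relative of Rab7 known to restrain Toll-like receptor signaling in macrophages, was at 8.05, 8.04, 8.20 and 8.23 log2 CPM at 0 h, at 6.26, 6.03, 6.29 and 6.06 at 4 h, and at 7.40, 7.50, 7.36 and 7.43 at 8 h. The libraries of the 3 times did not overlap. Rab7b fell by 1.97 ± 0.08 at 4 h (adjusted p = 6.85e-09) and by 0.70 ± 0.08 at 8 h (adjusted p = 3.3e-05) on the log2 scale. Rab7 itself lay between 8.77 and 9.01 log2 CPM at 0 h, 8.46 and 8.80 at 4 h, and 8.31 and 8.57 at 8 h. Its log2 fold change was -0.19 ± 0.09 at 4 h (adjusted p = 0.0976) and -0.40 ± 0.09 at 8 h (adjusted p = 0.0041). At 4 h Rab7 was called lower under quantile normalization (-0.60, adjusted p = 4.58e-05) and without replicate 1 of WT at 4 h (-0.28, adjusted p = 0.0101). Rab29, a lysosomal Rab, fell by 0.68 ± 0.15 and 0.45 ± 0.15 on the log2 scale.

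In the 12 Rabs of the ER and Golgi, 3 rose and 3 fell at 4 h, and 2 rose and 2 fell at 8 h. Rab19, a Golgi Rab, fell furthest of all called Rab genes, with 2.61, 3.10, 3.05 and 3.05 log2 CPM at 0 h, 0.35, 0.08, 0.51 and 1.45 at 4 h, and 0.46, 0.36, -0.45 and 0.44 at 8 h (WT, then S513A). The treated libraries did not reach the 0 h range. The fall was 2.35 ± 0.26 at 4 h on the log2 scale, 5.11-fold lower (limma, adjusted p = 2.09e-05), and 2.75 ± 0.26 at 8 h, 6.72-fold lower (adjusted p = 8.22e-06). The paralogs Rab6a and Rab6b, which carry vesicles back through the Golgi, went opposite ways. Rab6a rose by 0.61 ± 0.06 at 4 h (adjusted p = 1.34e-05) and 0.38 ± 0.06 at 8 h (adjusted p = 0.000584) on the log2 scale, while the much less abundant Rab6b fell by 1.29 ± 0.22 (adjusted p = 0.00055) and 1.26 ± 0.22 (adjusted p = 0.000816). Rab6a shares 11.7% of its exon bases with Mrpl48 on the other strand, whose own log2 fold changes were -0.10 and -0.10. Rab1a, the ER-to-Golgi Rab, had log2 fold changes of 0.04 ± 0.08 and 0.05 ± 0.08 (adjusted p = 0.682 and 0.604), and under quantile normalization was called lower at both times (-0.34, adjusted p = 0.00161, and -0.22, adjusted p = 0.0211). Rab2a, of the same step, had 0.28 ± 0.11 at 4 h (adjusted p = 0.0419), which missed the threshold in 11 of the alternatives, and 0.09 ± 0.11 at 8 h (adjusted p = 0.51).

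Among the 8 Rabs of exocytosis and the plasma membrane, 2 rose and 3 fell at 4 h, and 1 rose and 3 fell at 8 h. Rab10, which carries Toll-like receptor 4 to the macrophage surface, lay at 7.46, 7.32, 7.37 and 7.48 log2 CPM at 0 h, at 8.53, 8.52, 8.51 and 8.63 at 4 h, and at 8.30, 8.36, 8.41 and 8.51 at 8 h (WT, then S513A). It rose by 1.14 ± 0.07 at 4 h (limma, adjusted p = 2.09e-07) and 0.99 ± 0.07 at 8 h (adjusted p = 8.36e-07) on the log2 scale. Rab8a, of the same branch, rose by 0.42 ± 0.12 at 4 h (adjusted p = 0.013) and had 0.27 ± 0.12 at 8 h (adjusted p = 0.0936). Rab37, of the same group, went the other way without being called. With 0 to 13 reads per library, it had 1.65 ± 0.66 at 4 h (limma, adjusted p = 0.0543) and 1.75 ± 0.66 at 8 h (adjusted p = 0.0516). The 3 that fell were the granule Rabs Rab27a, Rab3d and Rab3a. Rab27a, which docks secretory lysosomes, was at 3.00, 3.14, 2.91 and 3.08 log2 CPM at 0 h, at 1.76, 1.82, 1.08 and 1.32 at 4 h, and at 1.83, 2.05, 2.18 and 1.68 at 8 h. It fell by 1.53 ± 0.15 (adjusted p = 7.62e-06) and 1.09 ± 0.15 (adjusted p = 0.000138), and Rab3d by 1.13 ± 0.11 and 1.07 ± 0.11 on the log2 scale. Rab3a, with 2 to 33 reads per library, fell by 2.29 ± 0.36 at 4 h (adjusted p = 0.000265) and by 0.96 ± 0.36 at 8 h (adjusted p = 0.0489, and 0.0628 without the 2 libraries that stood apart). Granule Rabs are also expressed by neutrophils and eosinophils. The 3 listed neutrophil markers went both ways: Mmp8 fell by 0.45 at 4 h and 0.79 at 8 h on the log2 scale, Camp, at -4.84 to -1.53 log2 CPM at 0 h, was called higher at both times, and S100a8 had 0.74 at 4 h (adjusted p = 0.0715) and 0.86 at 8 h (adjusted p = 0.0456). The eosinophil marker Siglecf fell by 0.97 and 2.17, and Ccr3 was not tested. The part of these cells in the falls of the granule Rabs was not tested.

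Of the 6 recycling endosome Rabs, 2 rose and 1 fell at 4 h, and 1 rose and 1 fell at 8 h. Rab11a, which returns receptors to the surface, rose by 0.56 ± 0.10 at 4 h (limma, adjusted p = 0.000933) and had a log2 fold change of 0.24 ± 0.10 at 8 h (adjusted p = 0.0778). Rab14, which acts between Golgi and endosomes, had -0.05 ± 0.07 and -0.07 ± 0.07 (adjusted p = 0.563 and 0.482), and both values were called lower under quantile normalization. Rab4a, of fast recycling, with 4 to 30 reads per library, fell by 1.44 ± 0.35 (adjusted p = 0.0045) and 1.32 ± 0.35 (adjusted p = 0.00954). In the last group of 3, of the cilium or less settled role, Rab40c, a Rab with a domain that recruits ubiquitin ligases, fell by 0.85 ± 0.11 at 4 h (adjusted p = 5.64e-05) and 0.71 ± 0.11 at 8 h (adjusted p = 0.000305) on the log2 scale. Rab15 (1 to 12 reads per library) and Rab36 (0 to 7) did not pass the filter on low values and were not tested. Opposite-strand genes cover 70.9% of the exon bases of Rab2b (Gm43766), 66.4% of those of Rab24 (Prelid1) and 17.6% of those of Rab33b (Gm38160), and most exon bases of Rab43 (77.3%) and Rab4b (85.2%) lie in other same-strand gene models, so the values of these 5 are uncertain.

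**Figure D4:**
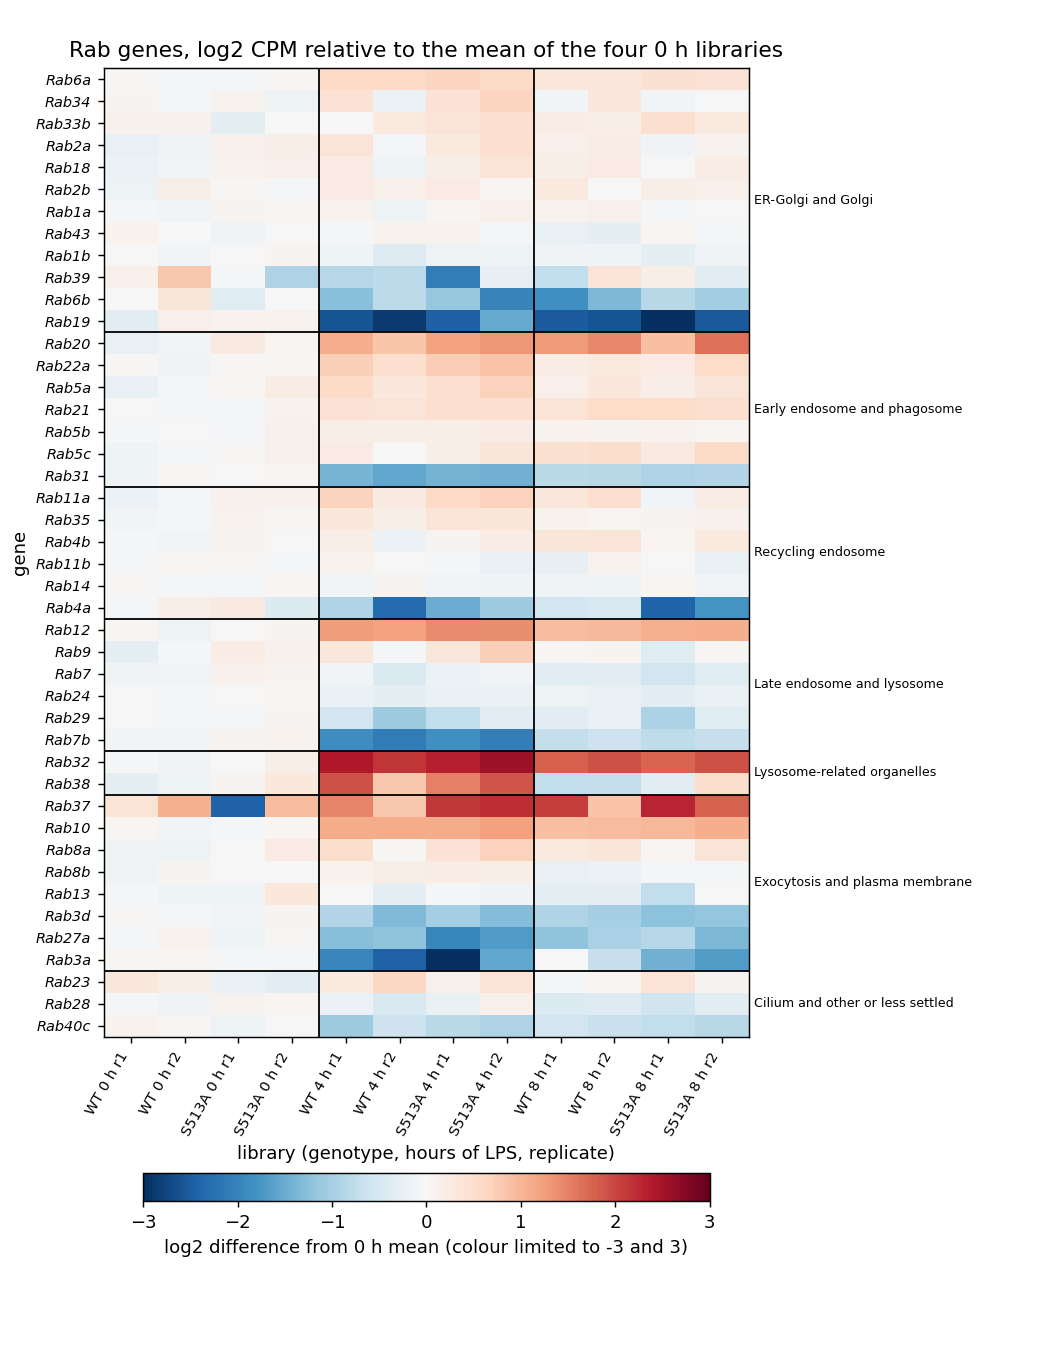
Log2 CPM of the 44 Rab genes tested in each of the 12 libraries, as the difference from the mean of the 4 libraries at 0 h (colour, limited to -3 and 3), with genes in rows by role and libraries in columns. Rab32 and Rab10 were higher in all 8 treated libraries than in the 0 h libraries, and Rab19, Rab7b and Rab31 lower.

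Between 4 and 8 h, 3 Rab genes were higher (6.82%) and 9 lower at 8 h (20.5%), against 12.8% of all genes in each direction. With quantile normalization there were 4 and 3, beside 13% and 11% of all genes. Rab7b was 1.27 ± 0.08 higher on the log2 scale at 8 h than at 4 h (limma, adjusted p = 7.69e-06) and Rab31 0.59 ± 0.07 higher (adjusted p = 0.000237). Rab38, which passed the filter only through its 4 h libraries, fell by 1.84 ± 0.33 (adjusted p = 0.00224). Rab32 fell by 0.52 ± 0.09 (adjusted p = 0.00171) and Rab12 by 0.30 ± 0.07 (adjusted p = 0.0109, and 0.0761 under quantile normalization). The log2 difference of Rab20 was 0.21 ± 0.15 (adjusted p = 0.336) and that of Rab19 -0.40 ± 0.26 (adjusted p = 0.312).

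The second comparison asks whether the S513A knock-in changed Rab RNA. By limma, 0 of 44 Rab genes were called at 0 h, where 0.0337% of all genes were, 0 at 4 h (0.0168%), 0 at 8 h (0.0337%) and 0 averaged over the 3 times (0.0673%). An unadjusted p under 0.05 was seen for 2, 1, 4 and 1 Rab genes in these 4 contrasts (4.55%, 2.27%, 9.09% and 2.27%), where 7.98%, 7.01%, 12.5% and 6.71% of all genes had one, and voom also called 0. The smallest unadjusted p of the averaged contrast was that of Rab12, with a log2 difference of 0.14 ± 0.06 (95% interval 0.007 to 0.262, limma adjusted p = 0.716). Rab5a had 0.17 ± 0.08 (interval -0.008 to 0.34) and the sparse Rab38 0.51 ± 0.27 (interval -0.079 to 1.105). For 38 of the 44 Rab genes the 95% interval of the averaged difference lay within 0.5 of 0 on the log2 scale. With only the 0 h libraries fitted, 1 Rab gene, Rab2a, was called higher in S513A at 0 h. In that fit 3.82% of all genes were called higher and 2.01% lower.

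**Figure D5:**
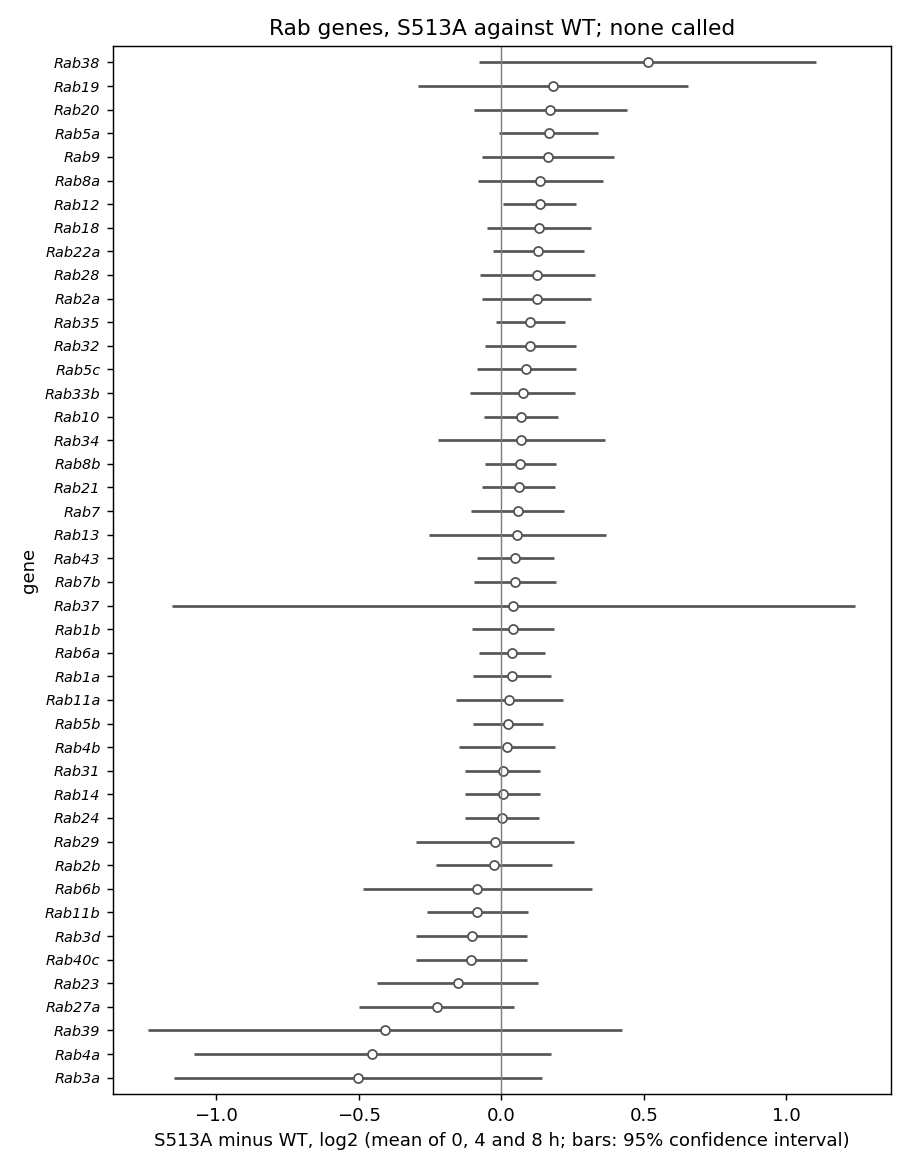
Difference in log2 level between S513A and WT (horizontal axis, mean of 0, 4 and 8 h) for the 44 Rab genes tested, with 95% confidence intervals. No Rab gene was called, and 38 of 44 intervals lay within 0.5 of 0.

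The LPS response was then compared between genotypes. The interaction called 0 Rab genes at 4 h and 0 at 8 h by limma, as for all genes (0% in each), and voom also called 0 Rab genes. The limma test gave an unadjusted p under 0.05 for 1 and 6 Rab genes (2.27% and 13.6%). Of all 11885 genes, 144 and 2405 had one (1.21% and 20.2%). Rab32 rose by 2.37 ± 0.12 in WT and 2.35 ± 0.12 in S513A at 4 h on the log2 scale, with an interaction of -0.02 ± 0.18. Rab7b fell by 1.90 ± 0.11 in WT and 2.04 ± 0.11 in S513A, with an interaction of -0.14 ± 0.16. Rab33b, the 1 Rab gene with an unadjusted p under 0.05 at 4 h, had 0.015 ± 0.144 in WT and 0.577 ± 0.144 in S513A. Among the 6 at 8 h was Rab11a, with 0.545 ± 0.147 in WT and -0.056 ± 0.147 in S513A. Its interaction was -0.601 ± 0.208 (limma, adjusted p = 0.197). In S513A at 8 h Rab11a lay at 6.79 log2 CPM in replicate 1, which stood apart, and at 7.10 in replicate 2. Neither gene was called.

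Of a list of 144 genes that regulate or serve Rabs, 127 were tested. At 4 h, 34 rose (26.8%) and 47 fell (37%), and at 8 h 27 rose (21.3%) and 32 fell (25.2%), beside the shares of all genes given above. The median log2 fold change was -0.10 at 4 h and -0.04 at 8 h. Among 34 GAPs, 8 rose (23.5%) and 19 fell (55.9%) at 4 h (median -0.38), where 29.1% and 26.7% of all genes did. At 8 h 5 GAPs rose (14.7%) and 14 fell (41.2%), against 24.5% and 21.6% of all genes. Between 4 and 8 h, 11 GAPs were higher and 6 lower at 8 h (32.4% and 17.6%), against 12.8% of all genes each way. Among 35 GEFs 11 rose (31.4%) and 10 fell (28.6%) at 4 h (median 0.07), and 7 rose and 8 fell at 8 h. Of 51 effectors and tethers 13 rose (25.5%) and 17 fell (33.3%) at 4 h, but 14 rose (27.5%) and 10 fell (19.6%) at 8 h. Of 7 genes for escort and prenylation 2 rose and 1 fell at 4 h, and 1 rose and 0 fell at 8 h. Tbc1d2, a GAP for Rab7, fell by 2.98 ± 0.19 at 4 h on the log2 scale, from 4.85 to 5.27 log2 CPM at 0 h to 1.80 to 2.65 (limma, adjusted p = 2.35e-07), and by 1.54 ± 0.19 at 8 h. Rab3il1, a GEF, fell by 2.40 ± 0.11 and 2.33 ± 0.11, and the GEF Dennd2c by 2.25 ± 0.45 and 1.79 ± 0.45. The GEF Dennd3, known to act on Rab12, rose by 0.97 ± 0.09 and 1.52 ± 0.09 (adjusted p = 4.48e-06 and 1.67e-07). Among effectors, Micall2 rose by 2.80 ± 0.17 and 2.48 ± 0.17, Rab11fip1, which binds Rab11, by 2.74 ± 0.11 and 1.69 ± 0.11, and Appl1, which binds Rab5, by 1.77 ± 0.07 and 0.84 ± 0.07. Mical1 fell by 2.43 ± 0.09 at 4 h and 1.77 ± 0.09 at 8 h.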

How the data were processed

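RNA-seq of 12 libraries was used (2 per group). Per the submitters' processing notes, reads were mapped to mm10 with HISAT2 and counted with featureCounts 1.6.3. The authors deposited normalized log2 CPM values, the log2 of the reads plus 0.5 over an effective library size. All values (100%) gave whole reads within 0.01 read. Genes with at least 1 CPM in 2 libraries were kept, leaving 11885. The log2 values as deposited were fitted with limma 3.58.1, run in R 4.3.3 (a mean per group, 6 residual degrees of freedom, trended prior, two-sided, Benjamini-Hochberg over all genes tested, threshold 0.05). Tables and plots were made with Python 3.11.15, pandas 2.3.3 and matplotlib 3.10.9. The fit was tested on simulated data. Exon lengths came from GENCODE on GRCm38, where all 46 Rab genes matched. The labels do not say whether a replicate number stands for the same mouse or cells at each time. Correlations of the replicate differences within a genotype ran from -0.358 to 0.76. Those between genotypes, which cannot come from a shared mouse, ran from -0.749 to 0.399. Large values thus arise without pairing, and the correlations cannot decide it. The main fit did not pair the libraries.

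The Rab genes, roles, lists and tests were chosen with earlier results of these data known. Genes named are up to 8 per direction with the largest change at 4 h and at 8 h, called and without overlap of the 4 libraries with the 4 at 0 h, up to 3 per direction for 8 h against 4 h, the 3 smallest p values between genotypes, 15 fixed Rab genes, and up to 3 regulators per direction. Rab1b, Rab28, Rab29, Rab33b, Rab35 and Rab37, named with values, were chosen after their values were seen. So were the genes named for a count, an exon overlap or a promoter match. In all, 11 motif patterns were searched in 2 promoter windows, and the set was revised after a first search. Alternatives were no or a stricter filter (mean of 5 CPM), a further pseudocount of 1 CPM, quantile normalization, median-ratio scaling, other priors, a replicate block, voom weights, only the libraries compared and each library left out. Leaving out the 2 libraries that stand apart was chosen after seeing the data.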

Additional observations from a re-analysis of the deposited data

How the results depend on the processing

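Of 46 called results for single Rab genes, 36 stayed called in the same direction under every alternative that tested the gene (the stricter filter drops low genes). Over 1363 repeats for 60 such results, 1296 kept direction and side of the threshold, 42 lost it, 17 passed it newly and 8 changed sign. Quantile normalization gave 7 of those 8: Rab1a (-0.34 at 4 h, -0.22 at 8 h), Rab2a (-0.063, -0.16), Rab5b (-0.10, -0.12) and Rab5c at 4 h (-0.20), and without replicate 1 of WT at 4 h Rab1a at 4 h was -0.023 (-0.023 to 0.104 over the libraries left out). The cause was not tested. Quantile normalization also ended the calls of Rab11a (0.22) and Rab8a (0.16) at 4 h and of Rab22a (0.21), Rab5c (0.18), Rab6a (0.17), Rab5a (0.11) and Rab3a (-0.815) at 8 h and of Rab12 at 8 h against 4 h (-0.20), called Rab1a, Rab7 (-0.60 at 4 h) and Rab14 (-0.43, -0.34) lower, and left the median of all genes at -0.065 at 4 h. Rab genes called at 8 h against 4 h numbered 7 under quantile normalization and 7 with only the libraries compared, against 12, and 7 to 15 when a library was left out (7 without replicate 1 of WT at 8 h). Leaving out 1 library also ended the call of Rab2a at 4 h, which was 0.226 without replicate 2 of S513A at 4 h. Rab5b at 4 h lost its call without replicate 1 of WT at 0 h. Rab5b and Rab8a at 4 h both did so without replicate 1 of S513A at 0 h or replicate 2 of S513A at 4 h. Leaving out any single library of 0 or 8 h ended the call of Rab3a at 8 h. The same held for Rab5a at 8 h, except for replicate 1 of S513A at 8 h. Only the libraries compared gave 1 Rab call between genotypes at 0 h, against 0, where 3.82% of all genes were called higher and 2.01% lower. Leaving out a library gave 22 to 29 Rab calls at 4 h and 18 to 26 at 8 h. With a replicate block, 28 Rab genes were called at 4 h, 25 at 8 h and 10 at 8 h against 4 h, and 0 in each genotype contrast. Whether libraries with the same replicate number share more than that number is not known. With 2 libraries per group and few reads, differences in Rab37, Rab38, Rab39, Rab3a and Rab4a were least precise.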
